A study of Rattus norvegicus with 64 samples.

Results

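The kidney comparison at 5 h after dosing set 8 acetaminophen rats against 8 vehicle rats, 16 of the 64 libraries in the series, and the members were taken from the labels for tissue, time and agent alone. The treated Sprague Dawley rats had received acetaminophen once, at 2 g/kg. The vehicle rats had received 50% polyethylene glycol at 6 ml/kg. Kidney messenger RNA was sequenced, and each kidney library comes from a separate rat. The other kidney libraries, 8 acetaminophen and 8 vehicle rats at 10 h with the same doses, entered the same model and served as samples outside the 5 h contrast. The labels give no sex, age, animal number or batch. Bulk kidney mixes many cell types, so a lower level can mean fewer cells of a type or less RNA per cell, and these cannot be told apart.

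Acetaminophen is best known for injuring the liver in overdose. Most of a dose is conjugated with glucuronic acid or sulfate and leaves in the urine. A smaller part is oxidised by cytochrome P450 enzymes to a reactive quinone imine, which is normally trapped by glutathione. The kidney, above all the proximal tubule, carries out both kinds of reaction and can also be injured by an overdose.

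The values are per transcript, under Ensembl transcript identifiers. None of the 28420 identifiers (0 matches) occurs in the reference table used here, so the transcripts carry no gene names. Kidney marker genes could therefore not be looked up. Across transcripts, Spearman's rho of a library's TPM (a level scaled to transcript length and to a fixed total) with the mean of the 10 h vehicle kidneys was 0.959 to 0.969 in the acetaminophen libraries and 0.962 to 0.970 in the vehicle libraries. With the 10 h vehicle livers it was 0.847 to 0.873 in all 16.

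The 16 libraries held 19132071 to 25661035 estimated counts. The 10 most abundant transcripts took 18.3% to 22.5% of them. Of the 14964 transcripts with a mean log2 CPM (a transcript's count scaled to a fixed library total) of at least 0, acetaminophen replicate 3 had 146 that lay at least 1 log2 unit below all 15 other libraries. The other 15 libraries had 8 to 52 such transcripts. Acetaminophen replicate 8 had 43 transcripts at least 1 log2 unit above all others, against 0 to 13 elsewhere. Of those 43, 42 were liver-enriched, meaning at least 1 TPM and at least 16 times more TPM in vehicle livers than in vehicle kidneys of 10 h. In that kidney 0.903% of the counts came from the 433 liver-enriched transcripts, against 0.171% to 0.447% in the other 15. Of the 146 low transcripts of replicate 3, 1 was called as a rise and none (0) as a fall. Of the 43 high transcripts of replicate 8, 1 was called. Over all tested transcripts 5.07% were called. Results are given without these libraries where they matter.

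A small part of the tested kidney transcripts was called as changed by acetaminophen at 5 h. A total of 482 transcripts rose (2.79% of those tested) and 395 fell (2.29%). Together these are 877 of 17284 transcripts, or 5.07%, called by edgeR's quasi-likelihood test with a limit of 0.05 on the p adjusted by Benjamini and Hochberg. The median log2 change was 0.47 among the rises and -0.50 among the falls. Over all 17284 transcripts the median was 0.00 and the median size of a change, without its sign, was 0.14. The rises held 2.32% ± 0.305 of all TPM in vehicle kidneys and 4.10% ± 1.13 in acetaminophen kidneys (SD, n = 8 each). The falls went from 1.04% ± 0.0396 to 0.741% ± 0.0863 of TPM (SD, n = 8 each). The transcripts were chosen on these libraries, so the shares describe them and add no support. The share of the rises leans on 1 transcript of 186 bases. Its median was 7155 TPM in vehicle and 15104 TPM in acetaminophen kidneys, but 156 and 310 in CPM. The share of counts held by the rises was not computed. The SD of the share of the rises was larger in the treated kidneys, whose shares ran from 2.77% to 5.80%, against 1.93% to 2.82% in vehicle kidneys.

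The count of calls depended on the kidneys in the fit. Without acetaminophen replicate 2, 4 or 5 it was 416, 518 or 546. Without replicate 6 it was 1262. The 16 libraries of 5 h fitted alone gave 242 calls, 127 rises and 115 falls. Without acetaminophen replicates 3 and 8 together, 549 rose and 367 fell. By limma on log2(TPM + 1) 215 rose and 394 fell, so the share of rises was 35.3% there and 54.96% in the edgeR fit. With limma's voom and its quality weights, which also weight each library as a whole, the share was 50.7%. The TPM setting changes the test and the scale and has no correction for composition, and the cause of the difference was not tested.

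The first question was how large the effects were at each level of expression. Transcripts were sorted by their mean TPM in the 8 vehicle kidneys of 10 h, which take no part in the 5 h contrast. The changes and their errors were largest under 1 TPM and became smaller up to 10 to 100 TPM, with little difference between the classes above that. Under 1 TPM the median size of a log2 change was 0.34 with a median standard error of 0.35. From 1 to 10 TPM these were 0.17 and 0.16, and from 10 to 100 TPM 0.10 and 0.09. From 100 to 1000 TPM they were 0.08 and 0.10, and at 1000 TPM and over 0.09 and 0.11. In each class the median change was close to its own standard error, so a typical transcript could not be called on its own. That is not evidence of no change. Before adjustment, 19.6% of all tested transcripts had an edgeR p under 0.05, and 22.3% of those from 10 to 100 TPM. The lowest share of a class was 11.2%, from 100 to 1000 TPM. With no effects at all, the share would on average equal the limit on p.

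**Figure D1:**
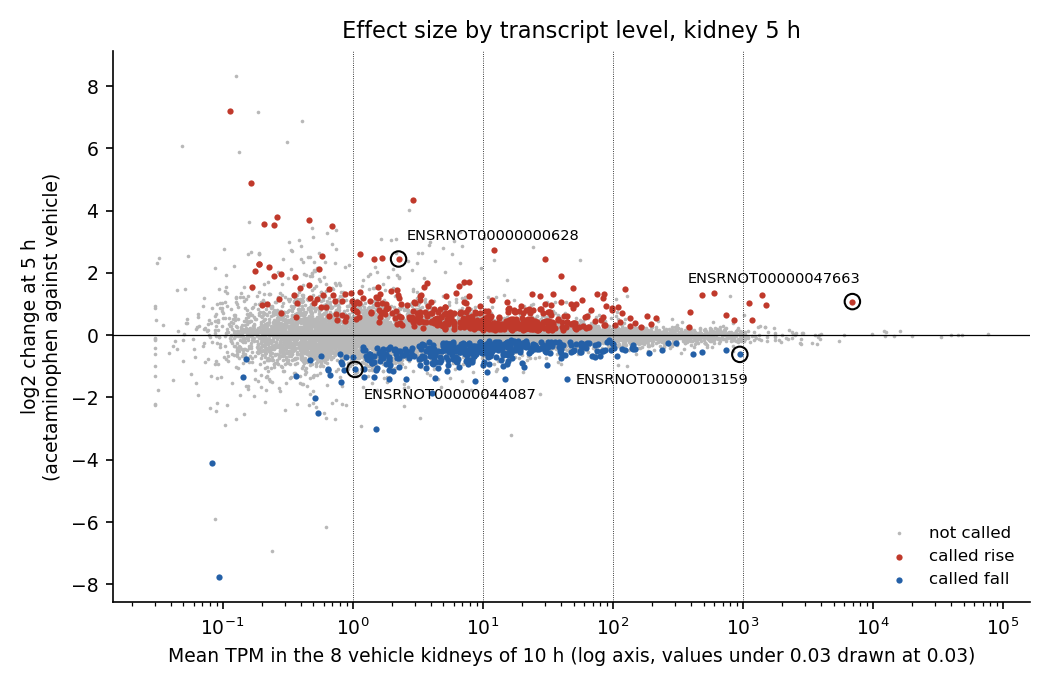
Each point is 1 of the 17284 transcripts tested, with its mean TPM in the 8 vehicle kidneys of 10 h on the log x axis and its log2 change between acetaminophen and vehicle at 5 h on the y axis. Red and blue points are the 482 called rises and 395 called falls, dotted lines mark 1, 10, 100 and 1000 TPM, and circles mark the 4 named transcripts. Called changes reach beyond 7 log2 units in both directions only at the left, under 1 TPM.

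Scarce transcripts held the largest fitted changes and the fewest calls per transcript tested. Under 1 TPM, 45 rose and 18 fell of 2649, or 2.38%, with median changes of 1.30 and -1.12. The called changes reached 7.20 and -7.78 there. In this class 302 transcripts had a fitted change of at least 1 log2 unit in size, and 14.6% of those 302 were called. Only 2649 of the 13542 transcripts listed under 1 TPM passed the filter on low counts. A scarce transcript can pass that filter through the group where it is high, so the class is not all scarce transcripts.

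Most calls fell in the middle of the range. From 1 to 10 TPM, 190 rose and 195 fell of 7139, or 5.39%, with median changes of 0.56 and -0.57. From 10 to 100 TPM, 224 rose and 164 fell of 6371, or 6.09%, with median changes of 0.36 and -0.39. The smallest called change was 0.16 log2 units in that class, 0.19 from 1 to 10 TPM and 0.46 under 1 TPM. From 100 to 1000 TPM it was 0.24, and 0.49 at 1000 TPM and over, so it did not fall further with level. A change of 1 log2 unit or more was fitted for 182 transcripts from 1 to 10 TPM and for 38 from 10 to 100 TPM, of which 31.3% and 47.4% were called.

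**Figure D2:**
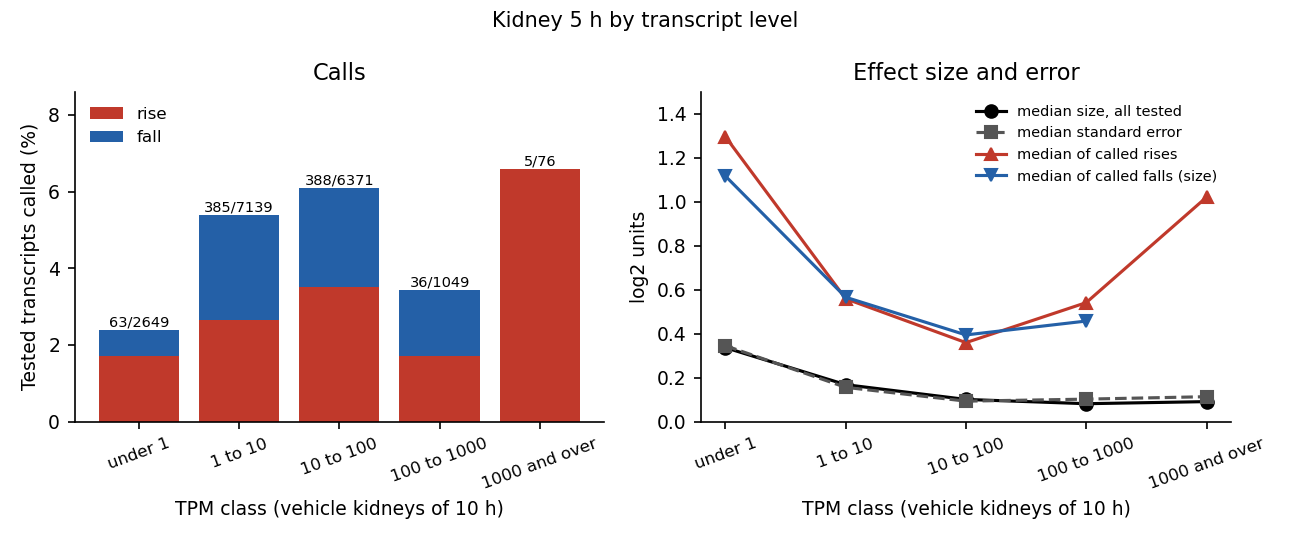
The left panel stacks the percentage of tested transcripts called as rises (red) and falls (blue) in each TPM class, with the number called and tested above each bar. The right panel gives, per class, the median size of the log2 change over all tested transcripts, its median standard error, and the median sizes of the called rises and falls. Calls run from 2.38% under 1 TPM to 6.58% at 1000 TPM and over, a class of only 76 transcripts with no called fall.

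Above 100 TPM the largest called rises exceeded the largest called falls in size, on few transcripts, and the difference was not tested. From 100 to 1000 TPM, 18 rose and 18 fell of 1049, or 3.43%, with median changes of 0.54 and -0.46. The largest rise was 1.48 and the largest fall -0.67. Of the 76 transcripts at 1000 TPM and over, 5 rose and 0 fell, and the rises had a median of 1.02. The 5 most abundant rises alone went from 1.25% ± 0.283 to 2.49% ± 0.888 of all TPM (SD, n = 8 each). The other rises together carried the smaller part of the gain in TPM.

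The 5 abundant rises were not alike. In order of level they had log2 changes of 1.08, 0.95, 1.28, 0.49 and 1.02. The third, 559 bases long, ran from 148 to 1476 TPM in vehicle kidneys with a median of 758, and from 707 to 3796 TPM with a median of 1340 in acetaminophen kidneys. Only 2 treated kidneys lay above its vehicle range, and its edgeR adjusted p was 0.0412. The fourth, 2528 bases long, ran from 919 to 1270 TPM in vehicle kidneys and from 1085 to 2096 TPM in treated ones, with 5 of 8 above the vehicle range. It was the only 1 of the 5 that also passed the test in kidney at 10 h (log2 change 0.48, edgeR adjusted p = 0.0117). The others are 186, 389 and 382 bases long, and 5, 6 and 5 treated kidneys lay above their vehicle ranges. In liver at 5 h 4 of the 5 rose, all but the one of 559 bases, whose log2 change was 0.57 (edgeR adjusted p = 0.199). Those of 186, 389, 2528 and 382 bases changed there by 2.38, 1.56, 1.61 and 2.24 (edgeR adjusted p = 3.04e-07, 4.23e-05, 0.00150 and 6.03e-07). The calls of the 389-base and 559-base transcripts were lost in kidney when 1 or another treated kidney was left out.

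Length bears on these levels, because TPM divides by an effective length that becomes small for short transcripts. The median length of the 76 was 666 bases and 36.8% were under 500 bases, against 1972 bases and 4.66% of all tested transcripts. Sorted instead by CPM, which does not divide by length, 99 called transcripts stood at 100 or more, against 41 at 100 TPM or more. These limits hold different numbers of tested transcripts. From 100 to 1000 CPM 5.90% of 1611 tested transcripts were called, against 6.32% from 10 to 100 CPM. The lower share of 3.43% from 100 to 1000 TPM was thus not seen in the CPM order. In the CPM order 2 rose and 2 fell of the 71 transcripts at 1000 CPM and over, so the lack of falls at the top holds for TPM only. The median length of the called transcripts was 2496 bases for the rises and 2145 bases for the falls. Longer transcripts collect more reads at the same TPM, and the part of this in the difference was not tested.

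The second question was how evenly the 8 treated kidneys had responded. Each kidney was given a response score. It is the median, over called transcripts, of the kidney's difference in log2 CPM from the vehicle mean, counted positive in the direction called. The calls came from a fit without the scored kidney, so a kidney did not choose its own list. Vehicle kidneys in that fit also formed the vehicle mean, which can raise every score, and by how much was not tested. The 8 acetaminophen kidneys scored 0.21, 0.81, 0.27, 0.61, 0.61, 0.11, 0.30 and 0.29 in the order of replicates 1 to 8. The 8 vehicle kidneys, each scored against the other 7, lay between 0.03 and 0.16, with a median of 0.05. Thus 7 treated kidneys scored above every vehicle kidney, and replicate 6, at 0.11, lay inside the vehicle range. The treated scores spanned 0.70 log2 units and the vehicle scores 0.13. The SD was 0.24 log2 units over the treated and 0.05 over the vehicle kidneys.

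**Figure D3:**
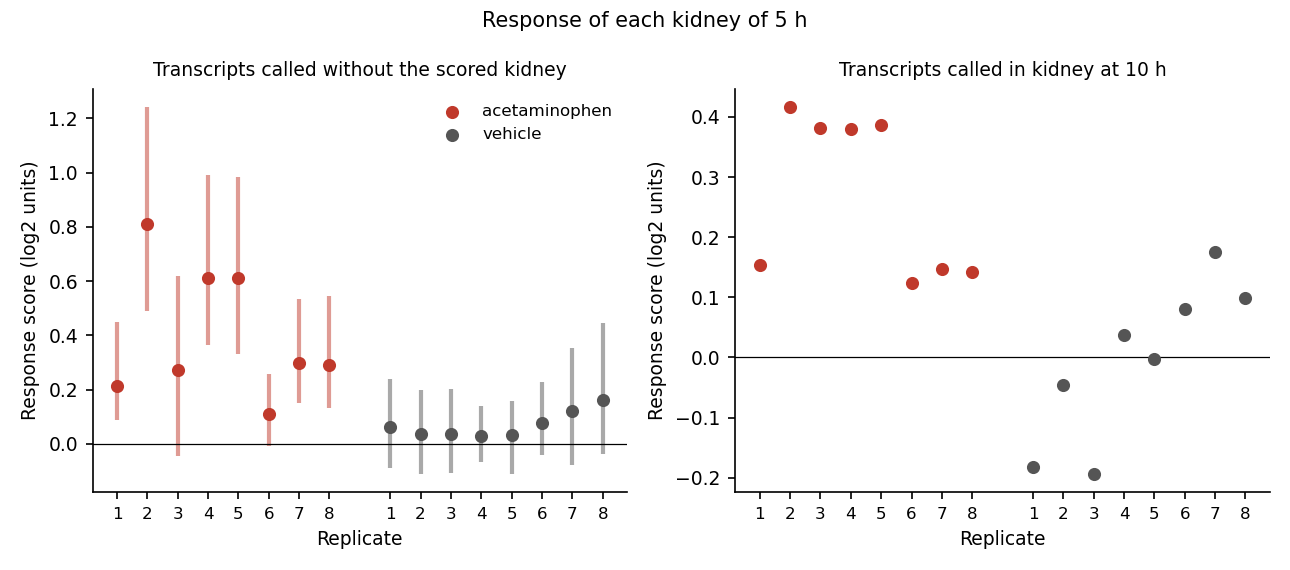
Each point is 1 kidney of 5 h, with its response score in log2 units on the y axis and its replicate number on the x axis, acetaminophen in red and vehicle in grey. On the left the score is read on transcripts called without that kidney, and bars span the middle quartiles over transcripts; on the right it is read on the 232 transcripts called in kidney at 10 h. Replicates 2, 4 and 5 lead on the left at 0.61 to 0.81, and replicates 2, 3, 4 and 5 lead on the right at 0.38 to 0.42.

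Rises and falls gave nearly the same order. For the rises alone, the median difference was 0.82 in replicate 2, 0.61 in replicate 4, 0.59 in replicate 5 and 0.09 in replicate 6. For the falls it was -0.80, -0.59, -0.63 and -0.14 in the same kidneys. The other 4 treated kidneys ran from 0.20 to 0.29 for the rises and from -0.35 to -0.24 for the falls. A kidney that rose little on the one list also fell little on the other.

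The share of transcripts that moved in the called direction separated the kidneys in another way. It was 97.3% in replicate 2, 96.5% in replicate 4 and 97.2% in replicate 5. Replicates 1, 7 and 8 had 88.3%, 93.5% and 91.4%, although their scores were at most 0.30. In replicate 3 it was 71.1% and in replicate 6 74.0%, while the vehicle kidneys ran from 55.6% to 71.5%. Replicates 3 and 6 differed in spread: the quartiles over transcripts were -0.04 and 0.62 in replicate 3 and -0.01 and 0.26 in replicate 6. Replicate 3 also lay outside the range of the 8 vehicle kidneys for 49.9% of all 17284 transcripts, the largest share of the 8 treated kidneys. The others lay outside it for 14.7% to 39.4%. A vehicle kidney lay outside the range of the other 7 for 14.6% to 40.8%.

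The lists differed in length, from 415 transcripts without replicate 2 to 1256 without replicate 6, and a longer list reaches smaller changes. Read on the 400 transcripts with the smallest p of each fit, the scores ran from 0.15 in replicate 6 to 0.81 in replicate 2, the vehicle scores ran from 0.03 to 0.19, and again 7 treated kidneys lay above every vehicle kidney. Replicates 4 and 5 followed at 0.66 each, and the rest lay between 0.28 and 0.41. Without the liver-enriched transcripts the score of replicate 8 and of the others hardly moved, and the range stayed at 0.70 log2 units.

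A list from other rats gave a different picture for replicate 3. In kidney at 10 h 232 transcripts were called (1.34% of those tested). On these, replicates 2, 3, 4 and 5 scored 0.42, 0.38, 0.38 and 0.39. Replicates 1, 6, 7 and 8 scored 0.15, 0.12, 0.15 and 0.14. No treated kidney lay between 0.15 and 0.38. The vehicle kidneys of 5 h ran from -0.19 to 0.18, so on this list only 4 treated kidneys stood above all vehicle kidneys, and the spread of the vehicle kidneys (SD 0.13) was as large as that of the treated ones (SD 0.13). Replicate 6 had the lowest score on both lists and replicate 2 the highest.

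Up to 1000 TPM the same kidneys stood at both ends in every class. Replicate 2 was highest and replicate 6 lowest under 1 TPM (1.53 and 0.28), from 1 to 10 TPM (0.87 and 0.12), from 10 to 100 TPM (0.65 and 0.09) and from 100 to 1000 TPM (0.78 and 0.17). The highest vehicle score in these classes was 0.50, 0.19, 0.13 and 0.17, so replicate 6 lay inside the vehicle range in each. At 1000 TPM and over the lists held 3 to 7 transcripts. There replicate 4 was highest at 1.85 and replicate 1 lowest at 0.24.

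Transcript by transcript, a minority of the calls separated all 8 treated kidneys from all 8 vehicle kidneys. A treated kidney inside the vehicle range can still lie on the called side of the vehicle mean. For 43 of the 482 rises all 8 acetaminophen kidneys lay above all 8 vehicle kidneys, and for 39 of the 395 falls all lay below. Over all tested transcripts 47 (0.272%) and 40 (0.231%) had this pattern. The median rise had 5 treated kidneys above the vehicle range and the median fall had 6 below it. For 130 rises and 114 falls, 4 or fewer treated kidneys were outside the vehicle range. These counts come from the libraries that made the calls and describe them.

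**Figure D4:**
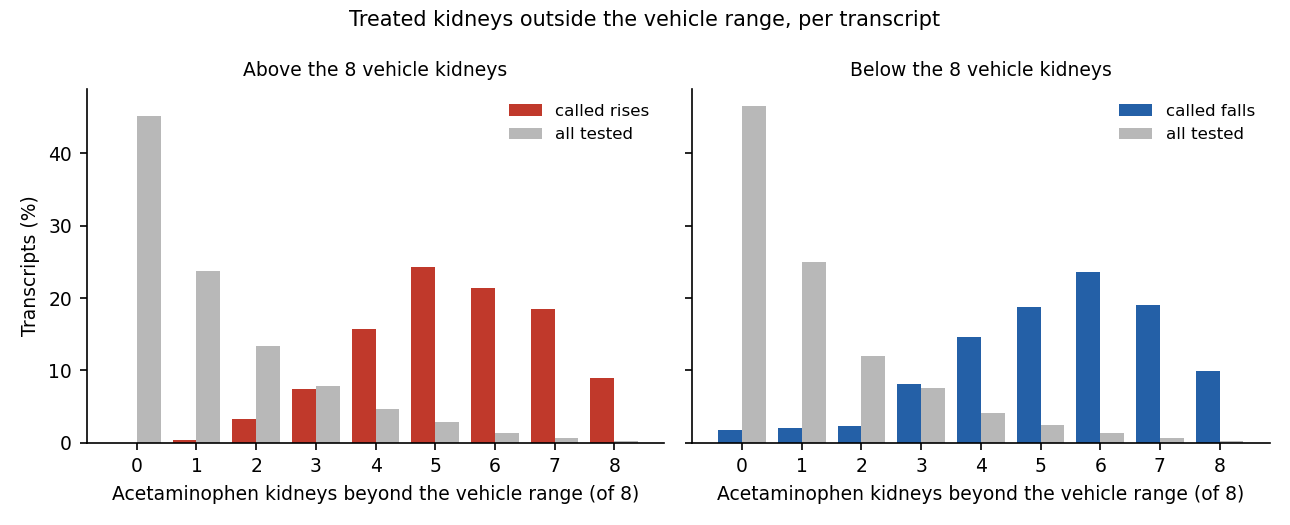
The x axis counts how many of the 8 acetaminophen kidneys lay above (left) or below (right) all 8 vehicle kidneys for a transcript, and the y axis gives the percentage of transcripts. Coloured bars are the 482 called rises and 395 called falls, and grey bars are all 17284 tested transcripts. Called transcripts centre on 5 or 6 kidneys, and 43 rises and 39 falls reach 8.

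The kidneys outside the vehicle range were mostly the same ones. Replicates 2, 4 and 5 lay above the vehicle range for 443, 435 and 420 of the 482 rises. Replicates 3, 7 and 8 did so for 330, 308 and 290, replicate 1 for 240 and replicate 6 for 150. The falls gave 359, 334 and 330 of 395 in replicates 2, 4 and 5 and 129 in replicate 6. Replicate 2 had the highest level of the treated kidneys for 194 rises and the lowest for 150 falls. Replicate 3 came next among the rises with 97, ahead of replicate 4 with 96, although its score was low. Replicate 6 was at or below the vehicle mean for 101 of the rises, and the other treated kidneys for 6 to 56. For the falls, replicate 6 was at or above that mean for 23, and the others for 0 to 18. All 8 kidneys took part in making these calls, so the counts describe the calls and do not test which kidneys led. Read on transcripts called without the kidney itself, replicates 2, 4 and 5 lay beyond the vehicle range for 89.2%, 81.6% and 79.2%. The others did so for 21.5% to 52.3%. Over all tested transcripts replicate 3 was outside the range most often, at 49.9%. Replicates 2, 5 and 4 followed at 39.4%, 35.3% and 33.1%.

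The share of a called change that came from 1 kidney was also read. With identical values in all 8 kidneys, each would hold 12.5% of the summed difference in CPM from the vehicle mean. The highest of 8 values exceeds this share through any spread between kidneys, also where the true responses are equal. The part of such spread was not tested. For the rises the most responsive kidney held a median of 28.3%, and for the falls a median of 21.02%. One kidney held more than 50% of the excess for 13 of the 482 rises, of which replicate 2 held 5, replicate 8 held 4, and replicates 3, 4, 5 and 6 held 1 each. None (0) of the falls was of this kind. Of the 13, 12 were transcripts under 10 TPM. A fall cannot go below 0 while a rise has no upper limit, which bears on the difference between the directions. A change carried by 1 kidney also widens the spread and is less readily called, so these counts hold for called transcripts only.

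When each acetaminophen kidney was left out in turn, 379 of the 877 calls were made in all 8 fits, 204 rises and 175 falls. When all 16 libraries were left out in turn, 374 calls were made in every fit. The 379 had a median size of 0.58 log2 units, against 0.42 for the others. They were 34.9% of the calls under 1 TPM, 45.97% from 1 to 10 TPM, 39.9% from 10 to 100 TPM and 61.1% from 100 to 1000 TPM. Leaving out replicate 2 alone removed 469 of the 877 calls and added 8. Leaving out replicate 6 removed 29 and added 414.

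Levels also spread more widely among the treated kidneys. Read as an SD over transcripts in general, this rested on replicate 3. Over all transcripts the median SD of log2 CPM was 0.29 in the acetaminophen and 0.25 in the vehicle group. The treated SD was the larger for 62.8% of transcripts, with a median log2 ratio of SDs of 0.23. Without acetaminophen replicate 3 the share was 47.8% and the median ratio -0.03. With any other of the 15 libraries left out that share was 60.8% to 68.7%. A second measure was edgeR's common coefficient of variation between kidneys, fitted in each group on its own. It was 0.335 in the acetaminophen group and 0.291 in the vehicle group. Without acetaminophen replicate 3 the treated value was 0.313, still above the vehicle value. For the called rises the treated SD was the larger in 81.1% with replicate 3 and in 76.3% without it, and for the falls in 74.4% and 71.1%. At 10 h, in other rats, the treated SD was the larger for 63.8% of all transcripts.

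ENSRNOT00000000628, the largest rise among transcripts with no overlap between the groups, had 3.33 CPM in the lowest, a median of 4.03 and 5.25 CPM in the highest vehicle kidney. In the acetaminophen kidneys the lowest was 7.88, the median 16.4 and the highest 59.2 CPM. All treated kidneys were above all vehicle kidneys, but the treated values spanned 7.52 times and the vehicle values 1.58 times. The fitted change was 2.45 ± 0.29 log2 units (SE; edgeR adjusted p = 6.82e-06), and replicate 2 held 37.3% of the summed excess. This SE, like those of the other named transcripts, uses a spread shared by the 4 kidney groups. Fitted on the 16 libraries of 5 h alone, the transcript had an edgeR adjusted p of 0.00536. At 10 h the groups did not overlap either, at 2.44 to 4.40 CPM in vehicle and 4.89 to 9.16 CPM in acetaminophen kidneys. That log2 change of 1.06 ± 0.29 was not called (SE; edgeR adjusted p = 0.0580). The change at 5 h exceeded that at 10 h by 1.39 ± 0.40, which did not pass the test (SE; edgeR adjusted p = 0.228).

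ENSRNOT00000047663 was the most abundant rise, 186 bases long, with a mean of 6977 TPM in the vehicle kidneys of 10 h. Its CPM, TMM-scaled like all CPM of single transcripts here, were 105, 156 and 245 in the lowest, median and highest vehicle kidney of 5 h. The acetaminophen kidneys had 186, 310 and 553 CPM in the same order. The groups overlapped, with 5 treated kidneys above the vehicle range, and replicates 4 and 5 were highest at 553 and 550.2 CPM. The log2 change was 1.08 ± 0.21 (SE; edgeR adjusted p = 0.00283). At 10 h it was 0.10 ± 0.21 (SE; edgeR adjusted p = 0.912). The effect was larger at 5 h by 0.98 ± 0.30, which was not called (SE; edgeR adjusted p = 0.286).

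ENSRNOT00000044087 had the largest fall without overlap and was scarce, at 1.04 TPM. The vehicle kidneys ran from 2.23 to 3.24 CPM with a median of 2.43, and the acetaminophen kidneys from 0.790 to 1.49 CPM with a median of 1.26. The treated values spanned 1.89 times and the vehicle values 1.45 times, and the lowest treated kidney held 16.3% of the summed fall. The log2 change was -1.10 ± 0.15 (SE; edgeR adjusted p = 2.82e-05). At 10 h it was -0.28 ± 0.14 (SE; edgeR adjusted p = 0.408).

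ENSRNOT00000013159 was the most abundant fall, at a mean of 951 TPM. The vehicle kidneys ran from 1416 to 2119 CPM with a median of 1573, and the acetaminophen kidneys from 800.4 to 1505 CPM with a median of 1086. Acetaminophen replicate 3, at 1505 CPM, was the only treated kidney inside the vehicle range, and replicate 2 was the lowest. The log2 change was -0.62 ± 0.13 at 5 h (SE; edgeR adjusted p = 0.00385) and -0.34 ± 0.13 at 10 h (SE; edgeR adjusted p = 0.203). In liver at 5 h the 4 named transcripts changed by 4.10, 2.38, -1.43 and -0.72 in the order given here (edgeR adjusted p = 4.42e-06, 3.04e-07, 0.0151 and 0.00440).

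**Figure D5:**
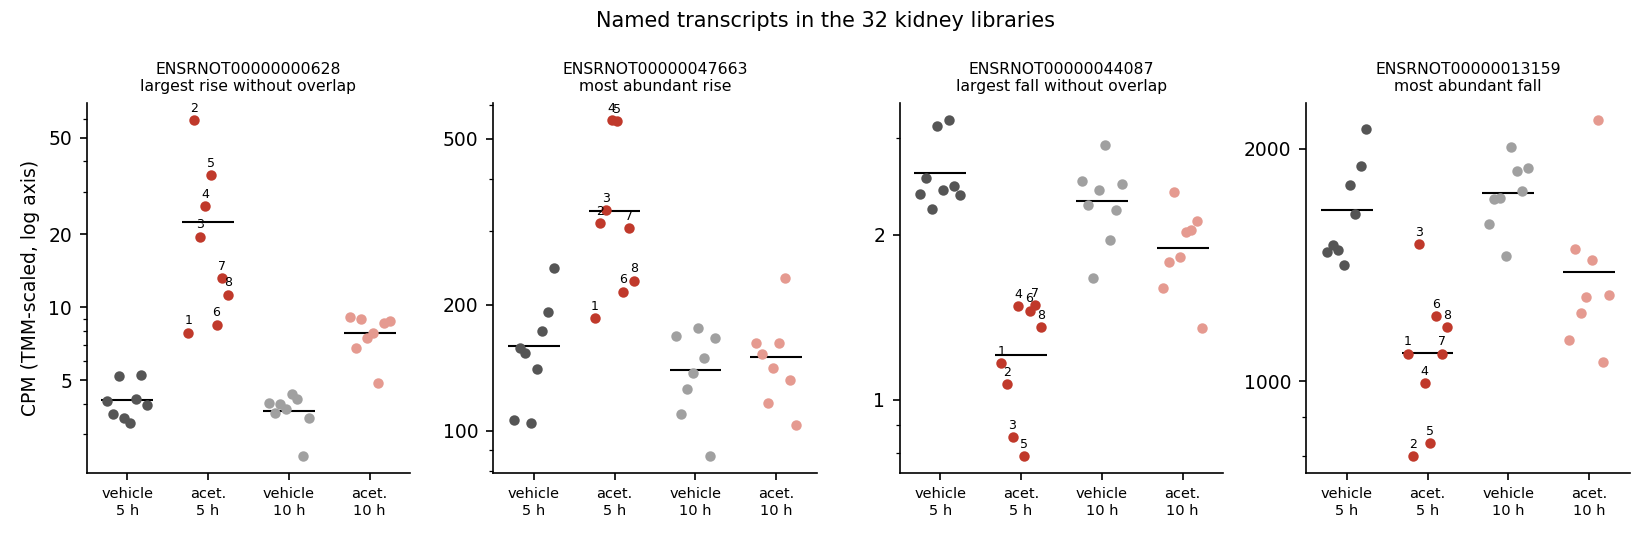
Each panel shows 1 named transcript in the 32 kidney libraries, with TMM-scaled CPM on a log y axis and the 4 groups of 8 on the x axis. Points are single kidneys, lines are group means, and the numbers beside the acetaminophen kidneys of 5 h are replicates. ENSRNOT00000000628 spreads from 7.88 to 59.2 CPM among the treated kidneys of 5 h, while ENSRNOT00000044087 stays between 0.790 and 1.49 CPM.

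The 877 transcripts were then read in samples outside the 5 h kidney contrast; the 10 h kidneys had shared its model and estimate of spread. In kidney at 10 h, 427 of the 482 rises had a positive log2 change, where 49.6% of all tested transcripts had one, and 328 of the 395 falls had a negative one. Their median change was 0.16 for the rises and -0.16 for the falls, against 0.47 and -0.50 at 5 h. Values chosen for being large in one set of rats tend to be smaller in another, and how much of this drop that makes up was not tested. The test of the difference between the effects at 5 h and 10 h called 4 transcripts, 0.0231% of those tested. Read on the 877 transcripts, the acetaminophen kidneys of 10 h scored 0.10 to 0.23 and the vehicle kidneys of 10 h -0.03 to 0.03, without overlap. The treated scores spanned 0.12 log2 units. On calls made at 10 h without the scored kidney, the treated scores of 10 h ran from 0.21 to 0.71 and the vehicle scores from -0.07 to 0.18. Whether the kidneys were less even at 5 h than at 10 h was not tested.

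The study's design counts 32 rats for the 64 libraries, with both organs collected, but the labels do not tie a kidney to a liver. Of the rises, 428 were also tested in liver, and 320 of them had a positive change there with a median of 0.27. Of the 328 falls tested in liver, 248 had a negative change with a median of -0.27. Over all transcripts tested in liver, 53.1% had a positive change and the median was 0.03. The kidneys were also scored on the 2027 transcripts called in liver at 5 h and tested in kidney. Replicate 5 was highest at 0.22, followed by replicates 2 and 4 at 0.14 each, while replicate 3 scored -0.17, below all vehicle kidneys, which ran from -0.05 to 0.06. Of 223 liver-enriched transcripts tested in kidney, 10 rose and 0 fell, where 2.79% of all tested transcripts rose and 2.29% fell. Without replicate 8, which had the highest liver-enriched share, 4 rose and 1 fell, against 504 and 383 of all 17415 tested in that fit.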

How the data were processed

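Poly-A libraries of kidney RNA were sequenced from 16 rats at 5 h and 16 at 10 h, and 32 liver libraries were used for 1 comparison. The authors deposited kallisto 0.42.4 tables (build Rnor 6.0, per the submitters' processing notes) with estimated counts, not normalized, and TPM, per the file headers; 28.6% of the estimated counts of the 5 h kidneys were not whole (tolerance 1e-06). Reads shared by related transcripts are divided by kallisto's model. Per the labels' protocol RNA came from culture cells, although the samples are labelled as kidney. Estimated counts were rounded to whole numbers. The test was that of edgeR 4.0.16 under R 4.3.3 (filterByExpr, TMM, quasi-likelihood test, two-sided) in a fit of 32 kidney libraries in 4 groups. Of 28420 transcripts 17284 passed the filter. Standard errors are the log2 change over the square root of F. Liver was fitted likewise. Scores use log2 CPM with a prior count of 2. Alternatives were DESeq2 1.42.0 and its size factors, no filter, robust edgeR, 16 libraries, 2 covariates and an adjusted p under 0.01. The package limma 3.58.1 was run on TPM, and on counts with voom and library quality weights. Other lists and level measures were used, and each library was left out. Named transcripts are the largest rise and fall without overlap (mean log2 CPM of at least 1) and the most abundant of each direction. The comparison, rules and lists were chosen with earlier results of these data known. The planned gene lists need symbols and were not used here. Replicates are numbered in accession order. No replicates of a group agreed within sampling noise (smallest chi-square per degree of freedom 13.3 over 56 pairs). The code was tested on simulated data.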

Additional observations from a re-analysis of the deposited data

Results flagged for a closer look

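Of 28 groups of 8 values examined, 3 held a kidney far from the other 7 of its group by Dixon's criterion. Chance gives about 1 in 20 for normal values in independent groups. The 28 groups share libraries and are not independent, so 3 of 28 cannot be read against that rate. All 3 flags are from acetaminophen kidneys of 5 h. Replicate 8 had 0.903% of its counts in liver-enriched transcripts, against 0.180% to 0.447% in the rest of its group. The same kidney had 43 transcripts at least 1 log2 unit above all other 15 libraries. Replicate 3 had 146 transcripts at least 1 log2 unit below all others. Neither of the response scores, nor the level of any of the 4 named transcripts, met the criterion in either group.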

How the results depend on the processing

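The count of 877 calls became 242 with the 16 libraries of 5 h alone and 245 at an adjusted p under 0.01. It ranged from 416 to 1262 when each library was left out in turn, 416 without acetaminophen replicate 2 and 1262 without replicate 6. The stricter limit lowers the count by construction, and for the other settings the cause was not tested. It was 1285 by DESeq2 and 654 with no filter. Without replicates 3 and 8 together, a setting chosen after seeing the data like the lists of 400, from liver, of all calls and without liver-enriched transcripts, it was 916. At 100 CPM instead of 100 TPM, 99 calls stood above the limit instead of 41, and the numbers of transcripts tested above these limits differ too. On the transcripts called at 10 h, 4 treated kidneys instead of 7 scored above all vehicle kidneys, and the range of treated scores was 0.29 instead of 0.70 log2 units. On the transcripts called in liver the range was 0.39. The cause was not tested. DESeq2 size factors and a prior count of 5 kept the 7 kidneys and moved the range to 0.70 and 0.69. All 4 named transcripts were called in each of 28 alternatives: ENSRNOT00000000628 at 1.75 to 2.59, ENSRNOT00000047663 at 0.94 to 1.19, ENSRNOT00000044087 at -1.15 to -0.49 and ENSRNOT00000013159 at -0.73 to -0.56. Their edgeR adjusted p was highest with the 16 libraries of 5 h alone, at 0.00536, 0.0310, 0.00452 and 0.0207 in that order. Counts summed per gene were not run, since the identifiers could not be joined to genes. No paired analysis was possible because the labels give the kidneys no shared replicate numbers. The median standard error was 0.35 log2 units under 1 TPM and 0.16 or less in the other classes, and the part of depth in it was not tested.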

Other observations

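In principal components of log2 CPM over the 16 kidneys of 5 h, the first, with 12.7% of the variance, set acetaminophen replicates 3 and 8 apart at -74.8 and -54.8, while the other 14 lay between -19.4 and 46.97. The second, with 11.4%, placed acetaminophen replicates 2, 4 and 5 at -50.0, -48.4 and -50.5. The other 5 treated kidneys lay between -10.9 and 10.8 and the vehicle kidneys between -8.49 and 36.7. The kidneys with the highest response scores were thus those lowest on the second component.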
